A study of Mus musculus with 12 samples.

Results

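The 38 genes described here encode nucleolar proteins and factors that make ribosomes. They were chosen by name, 1 probe set per gene, as the one with the highest mean over all 12 arrays, and all 38 were measured among the 18193 genes on the array. The 12 samples came from a pair of mouse embryonic striatal lines used to study Huntington's disease. STHdhQ111/Q111 cells (Q111 cells here), from HdhQ111/Q111 knock-in embryos, carry an expanded polyglutamine tract in huntingtin, and STHdhQ7/Q7 cells (Q7 cells), from HdhQ7/Q7 embryos labelled wild type, do not. The 4 groups, of 3 arrays each, were Q111 cells after 6 h at 42 °C, Q111 cells grown at 33 °C, Q7 cells after 6 h at 42 °C, and Q7 cells grown at 33 °C. All cells grew in medium with serum and G418. Such STHdh lines are known to have been immortalised with a temperature-sensitive large T antigen, whose state at either temperature was not measured here. Each genotype is represented by 1 line, so genotype and line cannot be told apart.

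Ribosomes are made mainly in the nucleolus. RNA polymerase I transcribes a long precursor of ribosomal RNA, small nucleolar ribonucleoproteins (snoRNPs) guide its chemical modification and folding, and large sets of assembly factors cut it and fit ribosomal proteins onto it. Separate factors build the small and the large subunit. The process takes much of the energy of a growing cell, and growth signals, partly through the transcription factor MYC, set its pace. Stress, heat included, is known to disturb the nucleolus.

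Values are log2 levels of RNA per probe set, so a difference of 1 is a 2-fold change. Differences are given with their standard error (SE), from 1 limma fit over the 4 groups, and a gene was called at a Benjamini-Hochberg adjusted p under 0.05 over all 18193 genes. A level at or under 5.14, the highest reading of any control probe set for bacterial sequence, is called background range. None of the 38 genes had a mean in background range, and 1, Polr1b, reached it on 1 array. Nothing in the labels says that replicates are separate cultures, so the spread behind each p-value is that of these samples and may be a technical one.

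Checks of the samples were as follows. Htt, which encodes huntingtin, was present in both lines, lower in Q111 cells at 33 °C (7.58 ± 0.25 against 8.87 ± 0.10 in Q7 cells, SD, n = 3 each), and the array does not read the repeat. Ppp1r1b, a defining marker of mature striatal projection neurons, averaged between 4.68 and 5.01 over the groups, in background range, and Drd2, Gad1 and Gad2 were lower still, while the striatal transcription factor Foxp1 averaged 10.50 to 11.68. Of the other 5 striatal markers, Rgs9 averaged 5.49 to 5.70, and Tac1, Drd1, Bcl11b and Penk were above background range in some groups, up to 7.38 for Tac1 in untreated Q7 cells. Vim, which encodes vimentin, averaged 13.49 to 13.80 in all groups, and the fibroblast gene Col1a1 11.96 to 13.16. Of the other fibroblast markers, Col3a1 averaged 12.03 to 12.90, Col1a2 9.47 to 12.96, Dcn 6.88 to 9.98 and Pdgfra 5.46 to 10.61. Lum was in background range in all groups (3.01 to 3.84). Sox2, a neural progenitor factor, averaged 3.96 and 4.71 in heat-shocked and untreated Q111 cells, against 10.96 and 10.60 in Q7 cells. In bulk samples fewer cells of a type and less RNA per cell cannot be told apart. The 3 prime minus 5 prime signal of the actin controls, a measure of RNA integrity in which a larger value means more loss of the 5 prime end, was 1.25 ± 0.23 in heat-shocked and 0.72 ± 0.36 in untreated Q111 cells. In Q7 cells it was 1.48 ± 0.12 after heat shock and 0.54 ± 0.16 at 33 °C. Some arrays stood apart. Heat-shocked Q111 replicate 3 had a median over all genes of 6.43, against 6.74 on both other arrays of its group. On it 15 of the 38 genes had their lowest level of all 12 arrays. The median of heat-shocked Q7 replicate 2 also lay below those of the other arrays of its group. On untreated Q7 replicate 2, 21 of the 38 genes had their highest level of all 12 arrays.

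**Figure D1:**
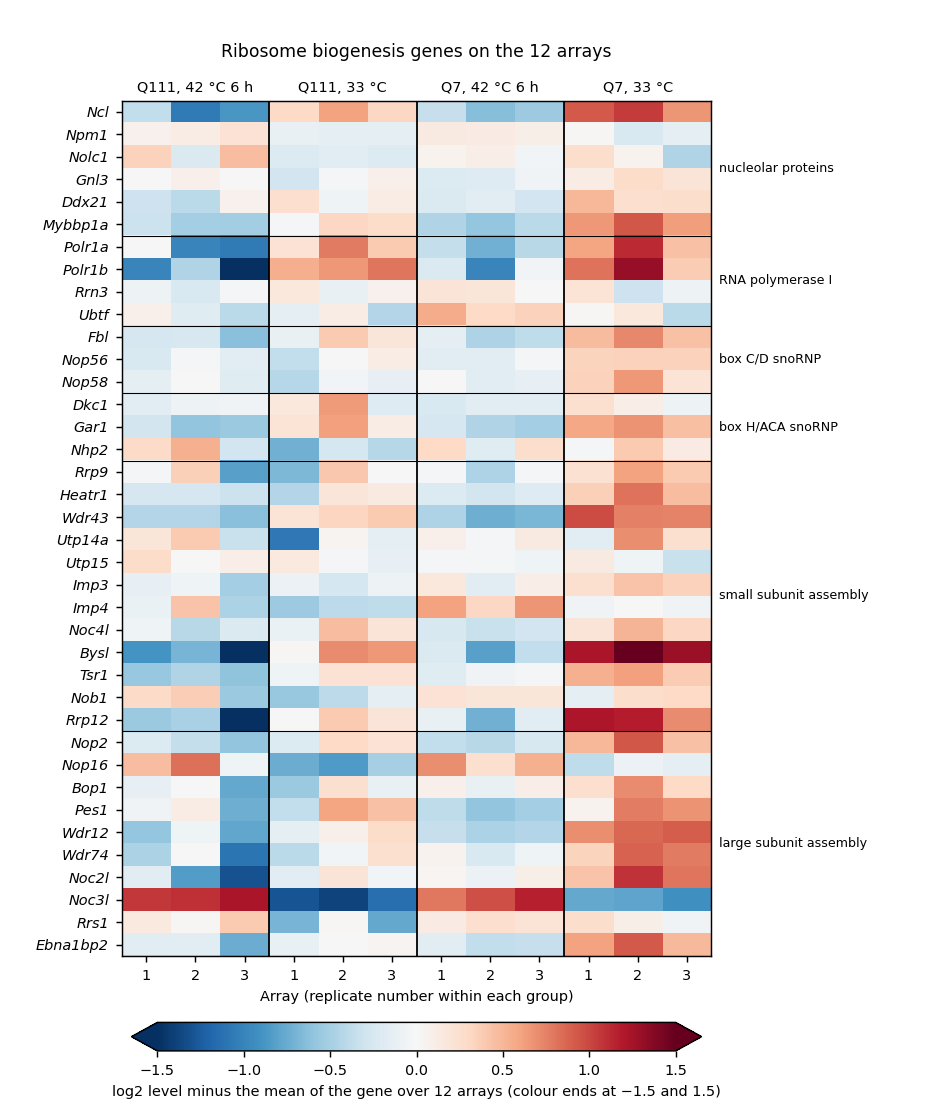
Log2 level of each of the 38 genes (rows, by role) on each array (columns, replicate numbers within the 4 groups), minus the mean of that gene over 12 arrays; red is higher and blue lower. Untreated Q7 cells form the reddest block, heat-shocked Q111 replicate 3 holds many of the darkest blues, and Noc3l runs the other way from most rows.

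Across the 38 genes, untreated Q7 cells had the highest group mean for 26, heat-shocked Q7 cells for 6, heat-shocked Q111 cells for 5 and untreated Q111 cells for 1. Over all genes, 24.1% had their highest mean in untreated Q7 cells, 19.9% in heat-shocked Q7 cells, 31.8% in heat-shocked Q111 cells and 24.3% in untreated Q111 cells. The lowest mean fell in heat-shocked Q111 cells for 19 of the 38, in untreated Q111 cells for 10, in heat-shocked Q7 cells for 8 and in untreated Q7 cells for 1, against 33.3%, 24.9%, 18.4% and 23.3% of all genes. The median deviation of the 38 genes from their own means was 0.30, 0.63 and 0.35 on the untreated Q7 arrays. On the other 9 arrays it lay between -0.52 and 0.09. The 44 ribosomal protein genes, the structural parts of the ribosome, stayed between -0.10 and 0.06 on every array.

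**Figure D2:**
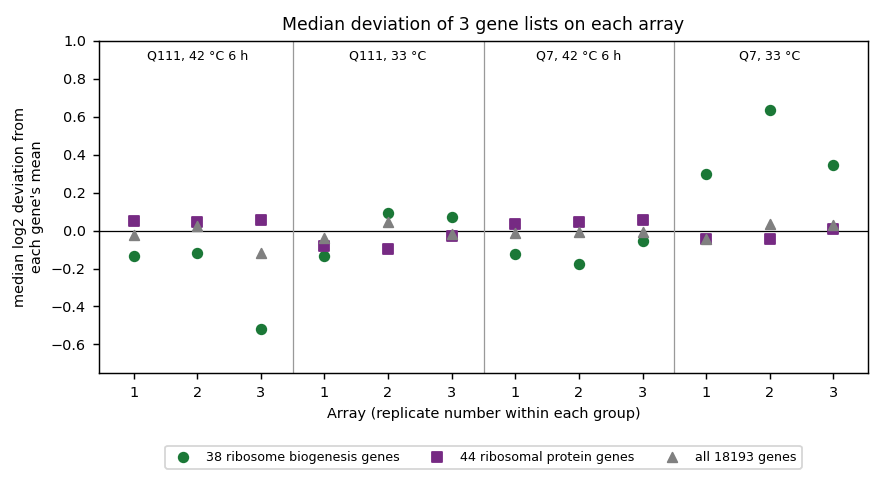
Median log2 deviation from each gene's own mean (vertical axis) on each of the 12 arrays (horizontal axis, by group) for the 38 ribosome biogenesis genes (circles), 44 ribosomal protein genes (squares) and all 18193 genes (triangles). The 3 untreated Q7 arrays carry the highest circles, 0.30 to 0.63, and the lowest circle, -0.52, is heat-shocked Q111 replicate 3.

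The first question was how heat shock changed these genes in each line. In Q111 cells 13 of the 38 fell and 4 rose. In Q7 cells 20 fell and 2 rose. Of all genes, 28.2% fell and 20.0% rose in Q111 cells, and 18.1% fell and 12.3% rose in Q7 cells, so 34.2% of the 38 falling in Q111 cells was near the background, while 52.6% in Q7 cells exceeded it. The 38 genes are bright, with a median over arrays of 10.90 against 7.06 for all genes. Among the brighter genes, those with a mean at or above the median of all genes, 43.3% fell in Q111 cells and 29.0% in Q7 cells. The arrays lay lower after heat shock without overlap for 11 of the 38 in Q111 cells (30.5% of all genes) and for 26 in Q7 cells (27.6% of all genes). They lay higher for 4 in Q111 (24.2% of all genes) and 5 in Q7 cells (21.2% of all genes). Each of the 13 genes that fell in Q111 cells also fell in Q7 cells, where they made up 65% of the falling genes, and Noc3l and Nop16 rose in both lines. Further probe sets beyond background range existed for 13 of the called genes in Q111 cells and 16 in Q7 cells. At least 1 of these did not pass for 5 and 4 genes, and at least 1 passed in the opposite direction for 2 and 2. Without heat-shocked Q111 replicate 3, 10 fell and 5 rose in Q111 cells, where Fbl, Nop2, Noc2l, Wdr12 and Rrs1 no longer passed. Those 4 falling genes also missed the threshold without untreated Q111 replicate 2 or 3. Without untreated Q111 replicate 1 or 3, 2 genes rose, and Nhp2 and Rrs1 did not pass.

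The median change of the 38 genes was -0.27 in Q111 cells, a value that turned to 0.46 when arrays were centred on the median of genes, and -0.57 in Q7 cells, where it was -0.21 with that centring. The centring moved the median of all genes too, to 0.71 from -0.02 as deposited in Q111 cells and to 0.36 from 0.003 in Q7 cells. Relative to the median of all genes the 38 stood at -0.25 in Q111 and -0.57 in Q7 cells. Centring cannot change these values, since it shifts all genes of an array alike. The 37 of them that are among the brighter genes stood, relative to the median of those genes, at 0.13 in Q111 and -0.44 in Q7 cells. With centred arrays 3 fell and 20 rose in Q111 cells, where 12.9% of all genes fell and 60.4% rose. In Q7 cells 12 fell and 5 rose, where 11.3% of all genes fell and 26.6% rose. The actin 3 prime minus 5 prime signal rose with heat shock as well. With it as a covariate 6 of the 38 fell in Q111 cells (16.4% of all genes) and 1 in Q7 cells (1.01% of all genes), both near the background. In Q7 cells the median change was then -0.68 and the median SE went to 0.38 from 0.19; its part in the changes was not tested further.

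**Figure D3:**
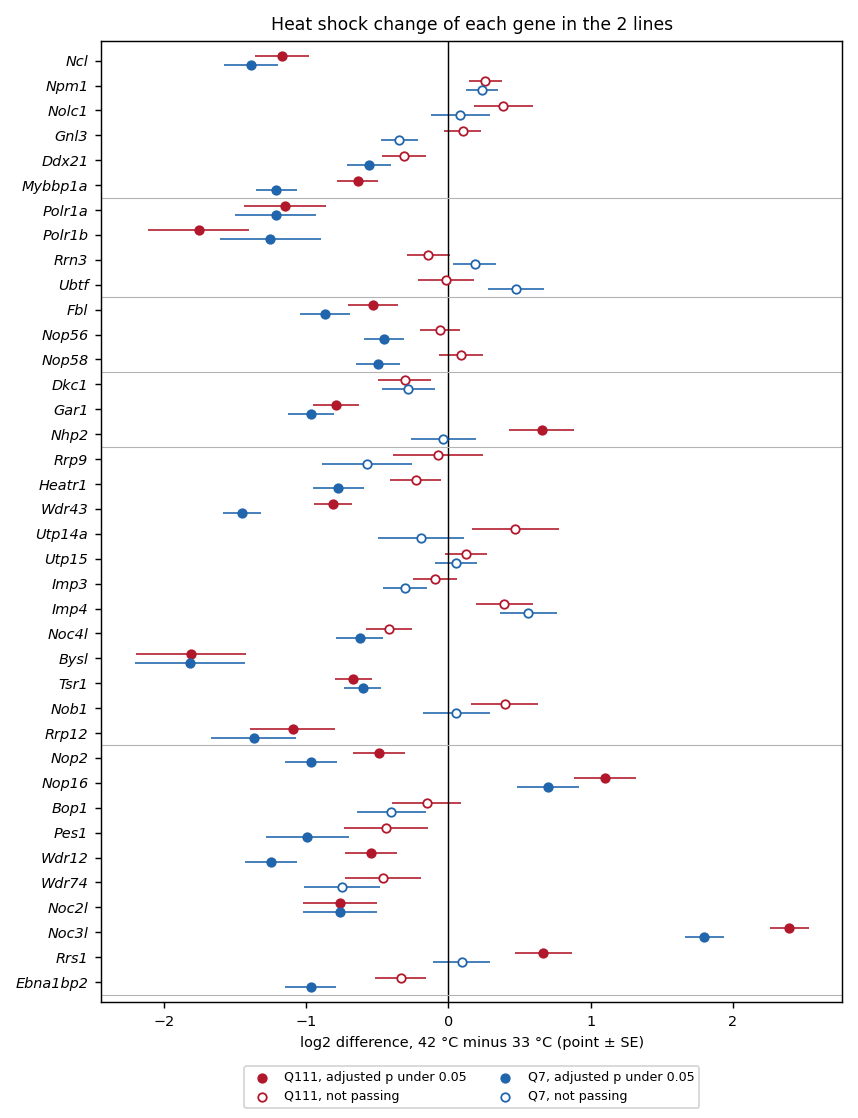
Log2 change of each gene, 42 °C minus 33 °C (horizontal axis, point ± SE), in Q111 cells (red) and Q7 cells (blue), with filled points at an adjusted p under 0.05. Most filled points lie left of 0, down to -1.81 in Q111 and -1.82 in Q7 cells for Bysl, and Noc3l lies farthest right; with arrays centred on the median of genes the points of Q111 cells shift right and their median becomes 0.46.

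Promoter sequence was read for 33 of the 38 genes from RefSeq's table for GRCm38.p6, over the 250 bases before each gene's start. The E-box CACGTG, which MYC and MAX bind and which reads the same on both strands, lay in 3 of the 33 (Imp4, Nop2 and Rrn3), or 9.09%, against 6.86% of 27025 genes. A heat shock element searched as GAA, any 2 bases, TTC, any 2 bases and GAA, on both strands, lay in 0 of the 33 and in 0.514% of all genes. A match is a description and not a bound site. The sequences below, 5′ to 3′ on the strand of the gene, show the E-boxes in capitals, beside Wdr43 and Noc3l, which had the lowest adjusted p in Q7 cells among falling and rising genes and hold no match.
Wdr43 at chr17:71615965-71616214, plus strand: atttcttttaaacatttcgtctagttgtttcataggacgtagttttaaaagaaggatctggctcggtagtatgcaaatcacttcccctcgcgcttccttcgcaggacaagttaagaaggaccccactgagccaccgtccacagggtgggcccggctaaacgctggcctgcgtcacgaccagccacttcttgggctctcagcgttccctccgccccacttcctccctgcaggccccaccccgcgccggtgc
Noc3l at chr19:38819238-38819487, minus strand: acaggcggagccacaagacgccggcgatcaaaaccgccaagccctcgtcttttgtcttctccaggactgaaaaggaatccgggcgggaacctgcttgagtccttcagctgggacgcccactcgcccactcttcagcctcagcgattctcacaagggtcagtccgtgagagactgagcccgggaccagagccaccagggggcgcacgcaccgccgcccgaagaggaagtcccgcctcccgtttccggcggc
Nop2 at chr6:125131633-125131882, plus strand: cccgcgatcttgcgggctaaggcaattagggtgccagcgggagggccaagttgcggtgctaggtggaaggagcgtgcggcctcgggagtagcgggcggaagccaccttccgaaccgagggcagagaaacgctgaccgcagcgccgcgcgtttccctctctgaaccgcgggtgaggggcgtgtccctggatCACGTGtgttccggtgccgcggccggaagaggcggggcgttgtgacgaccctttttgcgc
Imp4 at chr1:34439579-34439828, plus strand: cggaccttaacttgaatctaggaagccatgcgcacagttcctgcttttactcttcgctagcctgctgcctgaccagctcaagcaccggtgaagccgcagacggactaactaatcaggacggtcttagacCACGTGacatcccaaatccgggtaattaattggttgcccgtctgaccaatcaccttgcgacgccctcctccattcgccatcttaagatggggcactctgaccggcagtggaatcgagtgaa
Rrn3 at chr16:13780449-13780698, plus strand: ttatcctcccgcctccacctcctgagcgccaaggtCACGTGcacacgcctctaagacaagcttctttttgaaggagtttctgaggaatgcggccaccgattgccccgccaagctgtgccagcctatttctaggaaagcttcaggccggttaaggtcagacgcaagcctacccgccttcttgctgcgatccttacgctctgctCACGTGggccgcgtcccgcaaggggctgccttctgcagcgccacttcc
The E-box starts 60 bases before the start of Nop2, 121 before that of Imp4, and 215 and 48 before that of Rrn3. Of these 3 genes Nop2 fell in both lines (in Q111 cells as deposited, not with centred arrays), and Imp4 and Rrn3 passed in neither.

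Among 6 abundant nucleolar proteins, Ncl and Mybbp1a fell in both lines and Ddx21 in Q7 cells. Ncl encodes nucleolin, which binds ribosomal RNA and its genes. It read 11.33, 10.64 and 10.82 on heat-shocked Q111 arrays, against 11.99, 12.30 and 12.01 on untreated ones. In Q7 cells it read 11.35, 11.06 and 11.15 after heat shock and 12.62, 12.75 and 12.36 at 33 °C. Heat-shocked and untreated arrays did not overlap in either line. Nucleolin RNA fell by 1.17 (SE 0.19, limma adjusted p = 0.000546) in Q111 and by 1.39 (SE 0.19, limma adjusted p = 0.000294) in Q7 cells, a 2.25-fold and a 2.62-fold drop. The other 4 Ncl probe sets fell too in Q7 cells, by 1.02 to 1.47, and 3 of them in Q111 cells.

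Mybbp1a, the Myb-binding protein that restrains ribosomal RNA synthesis, fell by 0.64 in Q111 cells (SE 0.14), which became 0.09 with centred arrays, and by 1.21 in Q7 cells (SE 0.14, limma adjusted p = 0.000119). Ddx21, a nucleolar RNA helicase, fell by 0.56 in Q7 cells (SE 0.16), and its change in Q111 cells was -0.32 (limma adjusted p = 0.114). The dimmer Ddx21 probe set was called lower in both lines (-0.73 in Q111 and -1.16 in Q7 cells). Npm1, the nucleophosmin gene, was 0.26 and 0.24 higher after heat shock in Q111 and Q7 cells without passing (adjusted p = 0.0844 and 0.15, limma). Its arrays did not overlap in either line, and its spread within a group was at most 0.125 (SD). Gnl3, the nucleolar GTPase nucleostemin, gave 0.10 in Q111 and -0.35 in Q7 cells, and neither passed. Nolc1, a nucleolar chaperone of snoRNPs, gave 0.39 and 0.08 and did not pass. Its other 2 probe sets were called lower in Q7 cells (-0.91 and -1.39).

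Of the RNA polymerase I genes, those of the catalytic core fell in both lines and those of its initiation factors did not pass. Polr1a, the largest subunit, read 8.56, 7.57 and 7.50 on heat-shocked Q111 arrays, against 8.77, 9.34 and 8.96 on untreated ones. The Q7 arrays read 8.20, 7.84 and 8.14 after heat shock, against 9.15, 9.68 and 9.00 at 33 °C. It fell by 1.15 (SE 0.29, limma adjusted p = 0.00697) and by 1.22 (SE 0.29, limma adjusted p = 0.00749), and the heat-shocked arrays lay below the untreated ones in both lines. Both other Polr1a probe sets above background range fell in each line as well. With centred arrays the Polr1a change in Q111 cells was -0.42. Polr1b, the second largest subunit, fell by 1.76 in Q111 cells (SE 0.36), where replicate 3 was in background range at 4.76, and by 1.25 in Q7 cells (SE 0.36), where it did not pass without heat-shocked replicate 2 or untreated replicate 1 or 2. Rrn3, the factor that makes the polymerase competent to start, changed by -0.14 in Q111 and 0.18 in Q7 cells. Ubtf, which binds and opens ribosomal RNA genes, changed by -0.02 and 0.48 and did not pass in either line (adjusted p = 0.957 and 0.0946, limma). With centred arrays Rrn3 and Ubtf were called higher in Q111 cells, by 0.59 and 0.71. A dimmer Ubtf probe set was called lower in Q111 cells as deposited (-1.18, limma adjusted p = 0.0371) and gave -0.06 in Q7 cells.

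All 3 genes of the box C/D snoRNP core, which methylates ribosomal RNA, fell in Q7 cells, where 18.1% of all genes fell. With centred arrays 1 of the 3 fell in Q7 cells, at a median of -0.14. Fbl encodes fibrillarin, the methyltransferase. It fell by 0.53 in Q111 cells (SE 0.17, limma adjusted p = 0.0266), which was 0.20 with centred arrays, and by 0.87 in Q7 cells (SE 0.17, limma adjusted p = 0.00295). Nop56 and Nop58, the related scaffold proteins of the particle, fell by 0.45 and 0.50 in Q7 cells, and passed there in 12 and 14 of 21 alternatives. In Q111 cells they gave -0.06 and 0.09 and did not pass. The untreated level of Nop58 differed between the lines. It read 10.78, 11.17 and 11.09 in untreated Q111 cells, against 11.56, 11.86 and 11.42 in untreated Q7 cells.

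The box H/ACA snoRNP, which converts uridine to pseudouridine, had 1 gene that fell and 1 that rose in Q111 cells. Gar1, a core protein of it, fell by 0.79 in Q111 (SE 0.16) and by 0.97 in Q7 cells (SE 0.16). With centred arrays the Gar1 change in Q111 cells was -0.06 and did not pass. Nhp2, another, rose by 0.66 in Q111 cells (SE 0.23, limma adjusted p = 0.0337), although its arrays overlapped, at 11.72, 11.97 and 11.15 after heat shock and 10.71, 11.16 and 11.00 before. In Q7 cells Nhp2 changed by -0.04. Dkc1, which encodes dyskerin, the pseudouridine synthase, gave -0.31 and -0.28 in Q111 and Q7 cells and did not pass. Its other 2 probe sets, also far above background range, were called lower in Q7 cells (-0.86 and -0.91) and gave 0.08 and 0.01 in Q111 cells.

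Of 12 small-subunit assembly factors 4 fell in Q111 cells, a share near the 28.2% of all genes, and 6 fell in Q7 cells, against 18.1% of all genes. None was called higher in either line. Wdr43 belongs to the complex that engages the precursor as it is transcribed. It read 11.00, 11.01 and 10.82 on heat-shocked Q111 arrays, against 11.64, 11.77 and 11.84 on untreated ones. The Q7 arrays read 10.98, 10.72 and 10.76 after heat shock, against 12.42, 12.20 and 12.18 at 33 °C. After heat shock the lines overlapped, while at 33 °C all Q7 arrays were higher. Wdr43 fell by 0.81 in Q111 cells (SE 0.13) and fell by 1.45 in Q7 cells (SE 0.13, limma adjusted p = 2.48e-05), a 2.74-fold drop in Q7 cells. With centred arrays the Wdr43 change in Q111 cells was -0.08 and did not pass. Its second probe set fell in Q7 cells (-0.86) and gave -0.01 in Q111 cells.

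Bysl, which encodes bystin, a late factor of small-subunit assembly, fell in both lines. It read 8.49, 8.69 and 6.95 on heat-shocked Q111 arrays, against 9.40, 10.10 and 10.04 on untreated ones. Heat-shocked Q7 arrays read 9.17, 8.58 and 9.02, against 10.61, 10.93 and 10.68 on untreated ones. The changes of -1.81 and -1.82 (SE 0.39 each) are 3.50-fold and 3.53-fold drops, and replicate 3 of the heat-shocked Q111 cells was the lowest array by far. Without that array Bysl fell by 1.26 in Q111 cells (SE 0.24, limma adjusted p = 0.00165), less than Polr1b (-1.39). Rrp12, a factor that helps pre-ribosomes mature and leave the nucleus, fell by 1.10 (SE 0.30) and 1.37 (SE 0.30) in Q111 and Q7 cells. In Q111 cells it gave -0.71 without the same array and -0.37 with centred arrays. Tsr1, a GTPase-like factor of late assembly, fell by 0.67 in Q111 cells, which was 0.06 with centred arrays, and by 0.60 in Q7 cells.

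Heatr1 (-0.78), a large scaffold protein of the small-subunit complex, and Noc4l (-0.62) fell in Q7 cells. Their changes in Q111 cells were -0.23 and -0.42 and did not pass, and the difference between the lines was not called for either. The 3 dimmer Noc4l probe sets were called lower in both lines, at -0.58 to -0.81 in Q111 cells. The remaining small-subunit genes did not pass in either line. They were Rrp9, a protein of the snoRNP that starts precursor cutting, Imp3 and Imp4, which bind the same snoRNP, Utp14a, Utp15, and Nob1, the nuclease of the last cut. Their changes ran from -0.10 to 0.47 in Q111 cells and from -0.57 to 0.56 in Q7 cells. The dimmer probe set of Utp15, nearly as bright as the one used, was called 0.79 higher in Q111 cells and gave 0.02 in Q7 cells.

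Of 10 large-subunit assembly factors 3 fell and 3 rose in Q111 cells, near the 28.2% and 20.0% of all genes. In Q7 cells 5 fell and 2 rose, against 18.1% and 12.3% of all genes. Wdr12 is part of the complex with Pes1 and Bop1 that processes the large-subunit precursor. It read 10.15, 10.66 and 9.95 on heat-shocked Q111 arrays, against 10.60, 10.80 and 11.00 on untreated ones, which overlap. Heat-shocked Q7 arrays read 10.38, 10.25 and 10.28, against 11.42, 11.59 and 11.64 on untreated ones, which do not. Wdr12 fell by 0.55 (SE 0.18) and 1.25 (SE 0.18) in these lines. The dimmer Wdr12 probe set rose by 0.72 in Q111 cells and gave 0.18 in Q7 cells, so the direction in Q111 cells rests on the choice of probe set; with centred arrays it was 0.18.

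Pes1 fell by 0.99 in Q7 cells (SE 0.29) and gave -0.44 in Q111 cells. A much dimmer Pes1 probe set was called 1.25 higher in Q7 cells. Bop1 gave -0.15 and -0.40 and passed in neither line. Nop2, a methyltransferase of large-subunit RNA, fell by 0.49 in Q111 (0.24 higher with centred arrays) and by 0.96 in Q7 cells. Noc2l, which acts with Noc3l, fell by 0.76 in each line (SE 0.26), while its dimmer probe set gave -0.29 and -0.31 and did not pass. Without heat-shocked Q111 replicate 3 Noc2l did not pass in Q111 cells (-0.49, limma adjusted p = 0.111). With centred arrays its change there was -0.04 and did not pass either. In Q7 cells the fall of Noc2l passed in 10 of 21 alternatives. Ebna1bp2, a large-subunit processing factor, fell by 0.97 in Q7 cells (SE 0.18) and gave -0.34 in Q111 cells. Another Ebna1bp2 probe set, with a mean in background range (4.91), was called higher in both lines, by 2.75 in Q111 and 0.95 in Q7 cells. Wdr74 gave -0.46 and -0.75 and did not pass.

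Noc3l, a partner of Noc2l in the transport and maturation of large-subunit particles, rose more than any other of the 38. It read 10.75, 10.79 and 10.92 on heat-shocked Q111 arrays, against 8.40, 8.30 and 8.56 on untreated ones. In Q7 cells it read 10.48, 10.66 and 10.86 after heat shock, against 8.93, 8.90 and 8.77. The 2 groups of each line were far apart. The rise was 2.40 in Q111 cells (SE 0.14, limma adjusted p = 1.16e-06, 5.27-fold) and 1.80 in Q7 cells (SE 0.14, limma adjusted p = 9.98e-06, 3.48-fold). The other Noc3l probe set, at a mean of 8.38, went the other way. It fell by 0.77 in Q111 and by 1.03 in Q7 cells and passed in both, so the direction of Noc3l depends on the probe set.

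Nop16 rose by 1.10 in Q111 cells (SE 0.22, limma adjusted p = 0.00188) and by 0.70 in Q7 cells (SE 0.22, limma adjusted p = 0.0315). It read 10.28, 10.64 and 9.74 on heat-shocked Q111 arrays, against 9.07, 8.96 and 9.32 on untreated ones. In Q7 cells it read 10.52, 10.06 and 10.34, against 9.43, 9.72 and 9.67. Its second probe set rose in Q111 cells (0.52) and gave -0.14 in Q7 cells. Rrs1, which loads the 5S ribonucleoprotein onto the large subunit, rose by 0.67 in Q111 cells (SE 0.20), and its second probe set by 0.98. The untreated Q111 arrays of Rrs1 were uneven, at 10.85, 11.56 and 10.79, against 11.69, 11.57 and 11.94 after heat shock. In Q7 cells Rrs1 changed by 0.09.

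**Figure D4:**
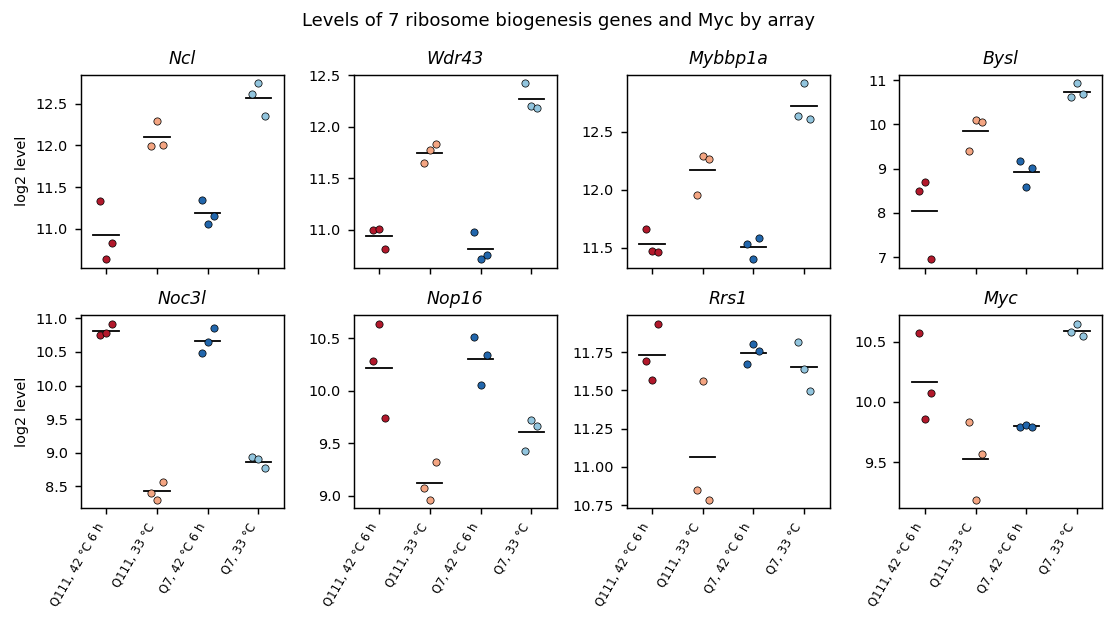
Log2 level (vertical axis, a separate scale in each panel that does not start at 0) of 7 ribosome biogenesis genes and Myc on each array (points), with group means (bars), in the 4 groups. As deposited, Ncl, Wdr43, Mybbp1a and Bysl lie lower after heat shock in both lines, and Noc3l and Nop16 higher. Myc lies above its 33 °C level in Q111 cells and below it in Q7 cells. With arrays centred on the median of genes Mybbp1a lies 0.09 higher and Wdr43 only 0.08 lower in Q111 cells.

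The second question was whether the lines responded differently. No gene of the 38 was called for the difference of the heat shock effects, Q111 minus Q7, by limma. At an unadjusted p under 0.05, 7 were higher and 0 lower, against 1153 higher and 2699 lower of the 18193 genes. A dimmer probe set of Dkc1 was called (0.94, limma adjusted p = 0.0277 over all probe sets). Of all genes, 1.21% were called higher and 4.51% lower. The difference was above 0 for 31 of the 38, meaning a smaller fall or a larger rise in Q111 cells, with a median of 0.30 and a range from -0.50 to 0.70. The median over all genes was -0.01. The size was highest for Wdr12 (0.70, SE 0.26, limma adjusted p = 0.144) and nearest to passing for Wdr43 (0.64, SE 0.19, limma adjusted p = 0.0712). Over the alternatives the adjusted p for Wdr43 ranged from 0.0167 to 0.173. With arrays centred on the median of genes 8 were called higher (4.24% of all genes), at a median of 0.67 against 0.37 for all genes. The RNA polymerase I genes Rrn3, Ubtf and Polr1b were among the 7 genes below 0, at -0.33, -0.49 and -0.50.

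The third question was how the lines differed at each temperature. After heat shock 1 of the 38 genes, Tsr1, was called, lower in Q111 cells (-0.46, SE 0.13, limma adjusted p = 0.0275), and 0 were called higher by limma, also at an unadjusted p under 0.05. Of all genes, 15.5% were called lower and 6.58% higher. At an unadjusted p under 0.05, 5 of the 38 were lower, against 4046 lower and 2355 higher of the 18193 genes. The median difference was -0.05, and 0.33 with centred arrays, against 0.37 for all genes. Without overlap, 4 of the 38 were lower in Q111 cells (23.3% of all genes) and 2 higher (14.0% of all genes). Tsr1 read 10.16, 10.28 and 10.13 in heat-shocked Q111 cells, against 10.56, 10.68 and 10.70 in heat-shocked Q7 cells. Its second probe set was called lower too (-0.61). The call of Tsr1 alone rests on the probe set rule. Of the dimmer probe sets above background range, those of Ubtf (-1.62), Ncl (-1.07) and Imp4 (-0.74) were called lower. Those of Utp15 (0.50) and Dkc1 (0.45) were called higher. Bysl (-0.88) and Noc2l (-0.78) were larger in size and did not pass, with a wide spread among the Q111 arrays. The count was 0 without heat-shocked Q111 replicate 3 or any 1 heat-shocked Q7 array.

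At 33 °C the 38 genes were mostly lower in Q111 than in Q7 cells. The difference was below 0 for 35 of them, with a median of -0.48, against 0.00 for all genes. Called lower were 5, Mybbp1a (-0.55, SE 0.14), Nop58 (-0.60, SE 0.16), Wdr43 (-0.52, SE 0.13), Wdr12 (-0.75, SE 0.18) and Ebna1bp2 (-0.70, SE 0.18), with limma adjusted p between 0.0196 and 0.0301. None was called higher, also at an unadjusted p under 0.05, where 21 were lower. At that unadjusted level 1925 of the 18193 genes were lower and 1765 higher. Of all genes, 5.68% were called lower and 5.11% higher, and of the brighter genes 5.87% were lower. The arrays of the lines did not overlap for 22 of the 38, all with Q111 cells lower, while 14.2% of all genes were lower and 12.9% higher without overlap.

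Untreated arrays of the same number deviated together from their group means. With the replicate number as a block, 19 of the 38 were called lower in Q111 cells at 33 °C, against 10.1% of all genes. That pairing was inferred from these same data and the labels do not state it, so the blocked count is not separate support. Wdr12 gave an adjusted p of 0.00425, Noc2l 0.00451 and Bysl 0.00502 in that limma fit. Fits of fewer arrays moved the unblocked count. It was 0 without untreated Q111 replicate 1 and 0 without untreated Q7 replicate 2, 1 without untreated Q7 replicate 1, 2 without untreated Q111 replicate 3, 3 without untreated Q111 replicate 2, and 11 without heat-shocked Q111 replicate 3. The median stayed between -0.51 and -0.36 in all of these. Ebna1bp2 read 11.62, 11.72 and 11.78 in untreated Q111 cells, against 12.34, 12.65 and 12.22 in untreated Q7 cells. Wdr12 read 10.60, 10.80 and 11.00, against 11.42, 11.59 and 11.64. The 3 genes above 0 were Dkc1 (0.11), Rrn3 (0.09) and Utp15 (0.08), and Npm1 (-0.01) and Ubtf (-0.08) lay nearest below it. The sign depended on the probe set for some. Dimmer probe sets of Dkc1 gave -0.49 and -0.60 and that of Utp15 -0.28. A dimmer probe set of Pes1 gave 0.47 and 1 of Polr1a 0.10. None of these passed. Probe sets with a mean in background range also differed. That of Ebna1bp2 at a mean of 4.91 gave 1.34, opposite to the probe set used, and 1 of Imp4 gave -3.07, and both were called.

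**Figure D5:**
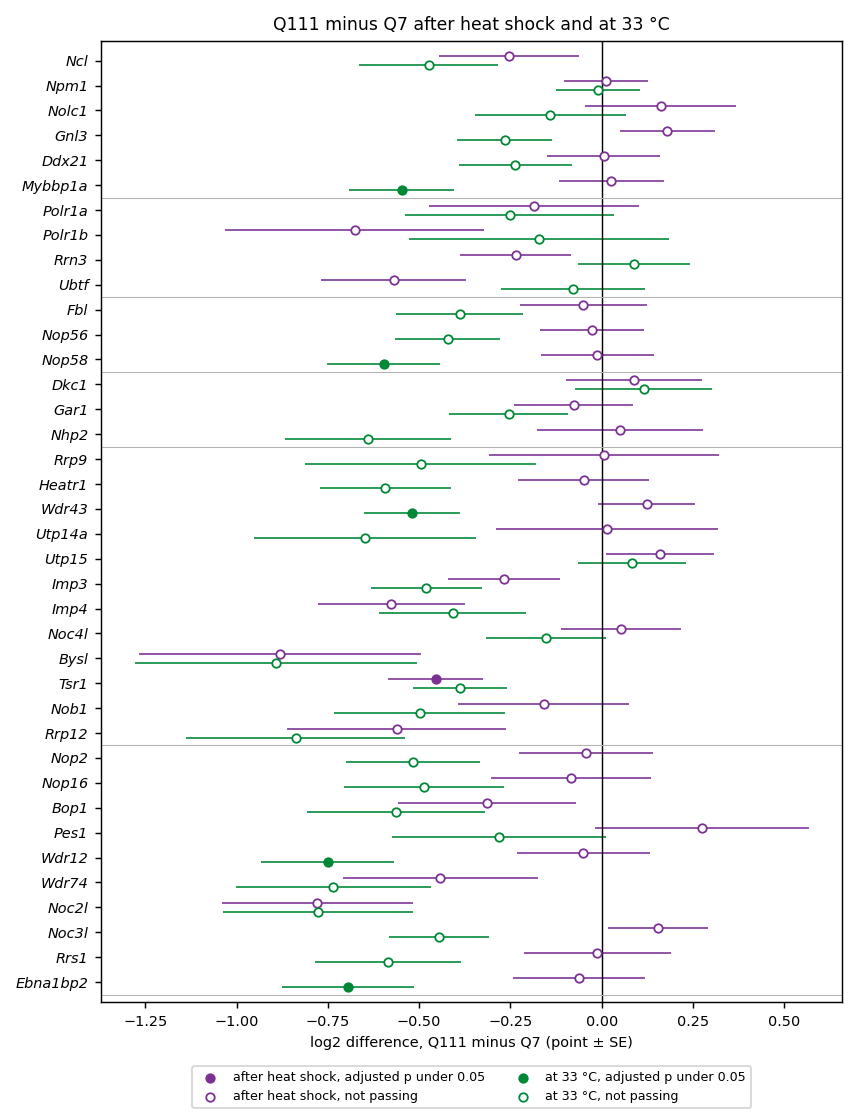
Log2 difference of each gene, Q111 minus Q7 (horizontal axis, point ± SE), after heat shock (purple) and at 33 °C (green), with filled points at an adjusted p under 0.05. Green points lie left of 0 for 35 of 38 genes with a median of -0.48, and purple points gather around -0.05, which becomes 0.33 with arrays centred on the median of genes.

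A wider set of 128 measured assembly genes outside the 38 was read for comparison. In Q111 cells 51 fell (39.8%, against 28.2% of all genes) and 21 rose (16.4%, against 20.0%). In Q7 cells 50 fell (39.1%, against 18.1% of all genes) and 12 rose (9.38%, against 12.3%). The wider set is bright too, with group medians from 9.88 to 10.44. Among the brighter genes 43.3% fell in Q111 cells and 29.0% in Q7 cells, so the share of the wider set falling in Q111 cells did not exceed theirs. The medians of -0.21 and -0.34 became 0.51 and 0.02 with centred arrays. There 19 fell and 65 rose in Q111 cells, where 12.9% of all genes fell and 60.4% rose, and 33 fell and 26 rose in Q7 cells, where 11.3% fell and 26.6% rose. Ddx56, a nucleolar helicase, fell by 2.30 in Q111 and by 2.28 in Q7 cells. Pelp1, a scaffold of a large-subunit release complex, fell by 3.01 in Q111 cells, where 1 array was in background range, and by 1.72 in Q7 cells. Tbl3, of the small-subunit complex, fell by 2.09 in Q111 cells and fell by 2.05 in Q7 cells. The RNA exosome gene Exosc10 fell by 2.17 in Q111 and by 1.29 in Q7 cells (not passing without untreated Q7 replicate 2), and Exosc5 by 2.06 in Q7 cells. In Q111 cells Exosc5 gave -1.33 with overlapping arrays (limma adjusted p = 0.0489, from 0.00941 to 0.24 over the alternatives), and -0.64 without heat-shocked replicate 3, which did not pass. Taf1d, of the RNA polymerase I promoter factor, rose by 1.50 and 1.04, Twistnb, an RNA polymerase I subunit, by 1.11 and 1.05, and C1d, an exosome cofactor, by 1.01 in both lines. Rrp36 rose by 0.93 and 1.25. The mean over Twistnb probe sets in Q7 cells was -0.01. At 33 °C the wider set had 6 lower and 1 higher in Q111 than in Q7 cells, with a median of -0.29. The 4.69% lower is below the 5.68% of all genes. By the other measures the wider set also lay mostly lower in Q111 cells, with 113 of the 128 differences below 0. At an unadjusted limma p under 0.05, 33 were lower and 2 higher, against 1925 and 1765 of all 18193 genes. Without overlap, 38 were lower and 2 higher, against 14.2% and 12.9% of all genes.

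Ribosomal protein genes were read as well. Of 44 measured, 6 rose and 0 fell in Q111 cells, and 4 rose and 0 fell in Q7 cells, by limma. The shares rising, 13.6% and 9.09%, are below the 20.0% and 12.3% of all genes, of which 28.2% and 18.1% fell. By overlap of arrays the list went the other way. Without overlap, 19 of the 44 were higher after heat shock in Q111 cells (24.2% of all genes) and 16 in Q7 cells (21.2% of all genes). In each line 1 was lower without overlap (30.5% and 27.6% of all genes). Their medians were 0.13 in Q111 and 0.06 in Q7 cells, 0.85 and 0.41 with centred arrays, and -0.05 for the lines at 33 °C. At an unadjusted limma p under 0.05, 1 was lower in Q111 and 0 in Q7 cells, against 5650 and 4196 of all 18193 genes. Higher at that level were 8 and 6, against 4438 and 3119 of all genes. Whether this list differs from the 38 was not tested.

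Of the growth regulators, Myc, a driver of ribosome biogenesis genes, changed in opposite directions. It read 10.57, 9.86 and 10.07 on heat-shocked Q111 arrays, against 9.83, 9.19 and 9.57 on untreated ones. In Q7 cells it read 9.80, 9.81 and 9.79, against 10.58, 10.65 and 10.54. The groups did not overlap, though the nearest heat-shocked and untreated Q111 arrays, 9.86 and 9.83, almost met. The rise in Q111 cells was 0.64 (SE 0.20, limma adjusted p = 0.0208) and Q7 cells fell by 0.79 (SE 0.20, limma adjusted p = 0.0106; 0.03 with the actin covariate). The difference of the effects was 1.43 (SE 0.28, limma adjusted p = 0.0162, range over the alternatives 0.00856 to 0.0505). At 33 °C the Myc difference, Q111 minus Q7, was -1.06 (limma adjusted p = 0.00401). Max, the partner of MYC, rose by 0.64 in Q111 cells and gave 0.22 in Q7 cells. Mycn fell by 0.65 and 0.74, which in Q111 cells was 0.08 with centred arrays and 0.05 with the mean of its probe sets. Mdm2, which controls p53 and senses ribosomal stress, rose by 1.17 and 1.27. Cdkn2a, which encodes the nucleolar protein ARF, gave -0.27 and -0.43 and did not pass.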

How the data were processed

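Total RNA of 12 samples was hybridised to 1-colour 3 prime expression arrays. The log2 levels were made by the authors with RMA before they were deposited, per the submitters' processing notes. Which software version and chip definition they used is not given in the sources used here. Of 45101 probe sets, 64 were controls, 34945 named 1 gene in the platform annotation, 932 named several, and 9160 are unnamed here. For each of 18193 genes 1 probe set was used, the brightest by its mean over 12 arrays. limma 3.58.1 in R 4.3.3 fitted the 4 group means, with 8 residual degrees of freedom and 3 arrays per group, and the script was tested on simulated data. The number of arrays limits the precision.

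The 38 genes and all other lists were chosen with earlier results of these data known. Named were all 38, the called wider assembly genes with the largest rises and falls in each heat shock contrast (up to 3 each way), and set growth regulators (Trp53 was not analysed here). Other genes are named as chosen after their values were seen. Values of additional probe sets use adjusted p over all probe sets.

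Same-numbered arrays were checked for pairing by the correlation, across genes, of their deviations from group means. It was 0.516, 0.402 and 0.577 for untreated Q111 against untreated Q7 cells, which were taken as paired from the data, since the labels state none. For Q111 heat shock it was 0.097, 0.180 and 0.241, for Q7 heat shock 0.146, -0.339 and -0.101, and between heat-shocked lines 0.345, -0.497 and -0.315. Differently numbered untreated arrays of the lines gave -0.426 to -0.085. Heat-shocked Q111 replicate 3 and heat-shocked Q7 replicate 2, numbered differently, gave 0.588, so a value of that size alone does not establish pairing. Alternatives were another probe set rule, brighter genes, 3 scalings, a variance trend, fewer groups, the replicate block, an actin covariate and leaving out arrays. The replicate block was fitted on the arrays of each comparison alone.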

Additional observations from a re-analysis of the deposited data

Results flagged for a closer look

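The difference of the heat shock effects, Q111 minus Q7, was called by limma for 5 of the genes listed beside the 38 (wider assembly genes, ribosomal proteins and growth regulators). They were 2 of 128 wider assembly genes, 0 of 44 ribosomal protein genes and 3 of 13 growth regulators, against 5.72% of all genes. Of all genes 1.21% were called higher and 4.51% lower. Myc gave 1.43 (SE 0.28, adjusted p = 0.0162), with the array values given above. Rb1, the retinoblastoma cell cycle gene, gave -2.23 (adjusted p = 0.00209, from 0.00128 to 0.0092 over the alternatives). It fell by 0.96 in Q111 cells and rose by 1.27 in Q7 cells. Mnt, a MYC antagonist, gave -1.27 (adjusted p = 0.0331, from 0.0239 to 0.175 over the alternatives), with changes of -1.79 in Q111 and -0.52 in Q7 cells. Lyar, a nucleolar factor of ribosome assembly, gave 0.96 (adjusted p = 0.043, from 0.00492 to 0.111), with -0.22 in Q111 and -1.18 in Q7 cells. Exosc4, of the RNA exosome, gave -1.05 (adjusted p = 0.0256, from 0.0115 to 0.386), with -1.67 in Q111 and -0.62 in Q7 cells. Rb1, Mnt, Lyar and Exosc4 are named here after their values were seen. The actin 3 prime minus 5 prime signal rose in both lines with heat shock, and its part in these differences was not tested beyond the covariate.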

How the results depend on the processing

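Counts of the 38 genes moved with the processing, and the cause was not tested. For heat shock in Q111 cells (13 lower, 4 higher), centring arrays on the median of genes gave 3 lower and 20 higher, further quantile normalization 8 and 7, the replicate block 8 and 2, the actin covariate 6 and 2, and fitting only the groups compared gave 2 higher. For heat shock in Q7 cells (20 lower, 2 higher), the centring gave 12 lower and 5 higher, the actin covariate 1 and 1, the variance trend 4 higher and the mean of all probe sets 0 higher. For the difference of the effects (0), 8 were higher with the centring, and 1 each with brighter genes, quantile normalization and the variance trend. For Q111 minus Q7 after heat shock (1 lower, 0 higher), the mean of probe sets gave 3 lower and 1 higher, the centring 0 lower and 3 higher, brighter genes 4 lower, the variance trend 3 lower, and quantile normalization, fitting only those groups, the replicate block and the actin covariate 0 lower. At 33 °C (5 lower), the centring gave 8, quantile normalization 10, the replicate block 19 and the actin covariate 3. Centring on ribosomal protein genes kept every count within 1.5 times.

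Leaving out 1 array at a time gave 9 to 15 lower and 2 to 5 higher in Q111 cells, 14 to 21 lower and 1 to 3 higher in Q7 cells, 0 to 1 higher and 0 to 0 lower for the difference, 0 to 2 lower and 0 to 0 higher after heat shock, and 0 to 11 lower and 0 to 0 higher at 33 °C. The count of 2 higher in Q111 cells came without untreated Q111 replicate 1 or 3. The 1 higher for the difference came without heat-shocked Q111 replicate 3. Tsr1 was called alone after heat shock, and the count was 0 without heat-shocked Q111 replicate 3 or any 1 heat-shocked Q7 array, and 2 without heat-shocked Q111 replicate 1 or 2 or untreated Q7 replicate 3. For Q7 cells, 1 was higher without heat-shocked replicate 1 or 3 or any 1 untreated replicate, and 3 without heat-shocked Q111 replicate 2 or 3.

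In Q111 cells, centring on the median of genes turned the heat shock change to 0.089 for Mybbp1a, 0.59 for Rrn3, 0.71 for Ubtf, 0.20 for Fbl, 0.67 for Nop56, 0.66 for Rrp9, 0.50 for Heatr1, 0.63 for Imp3, 0.058 for Tsr1, 0.24 for Nop2, 0.57 for Bop1, 0.18 for Wdr12, 0.39 for Ebna1bp2, 0.075 for Mycn, 0.46 for Cdkn2a and 0.51 for Lyar. The mean of all probe sets turned it to 0.056 for Wdr12, 0.76 for Ebna1bp2 and 0.045 for Mycn in Q111 cells, and to -0.74 for Nolc1, 0.13 for Pes1 and -0.012 for Twistnb in Q7 cells. It also turned Ebna1bp2 between lines to 1.04 after heat shock and 0.19 at 33 °C. The actin covariate turned Myc in Q7 cells to 0.034.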

Other observations

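The array also carries control probe sets for 18S ribosomal RNA, the main RNA of the small subunit. Labelling through poly(A) tails is not made to read it, so the values stand here without a comparison. The probe set for the middle of the molecule had a median of 13.24 (from 12.90 to 13.33) in heat-shocked Q111 cells and 13.25 (from 12.69 to 13.64) in untreated Q111 cells. In Q7 cells it had a median of 12.95 (from 12.78 to 13.29) after heat shock and 13.26 (from 13.24 to 13.30) at 33 °C. The ranges overlapped.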
